A study of Mus musculus with 42 samples.

Results

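The RNA described here was total RNA of NIH3T3 cells after 4 h of recovery from arsenite stress, sequenced by 3′READS. NIH3T3 is a mouse embryonic fibroblast line, for which the labels give the strain C57BL/6. Non-treated cells (NT) were harvested at 0 h, cells under arsenic stress (AS) received 250 µM sodium arsenite for 1 h, and recovering cells (RC4) received the same treatment and were then kept for 4 h in medium without it. The RC4, NT and AS libraries carry the same set number and are 3 of the 42 libraries of the series. The set also holds 1 library each after 8, 12 and 24 h of recovery (RC8, RC12 and RC24). Each time point is 1 library, so intervals on its values cover counting error only and do not describe the spread between cultures.

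Arsenite binds to thiol groups of proteins and raises reactive oxygen species. Misfolded proteins release the factor HSF1, which switches on chaperone genes, and modified KEAP1 lets NRF2 accumulate, which switches on genes for antioxidant and detoxifying enzymes. Stress kinases also phosphorylate eIF2α, which lowers general translation while allowing ATF4 to be made. Many genes have more than 1 cleavage and polyadenylation site (PAS) in their 3′UTR, and the choice between the proximal site (pPAS) and the distal site (dPAS) sets whether the mRNA holds the intervening segment, the alternative UTR (aUTR).

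In 3′READS, a read marks the end at which an RNA was cut and tailed, and the count at a PAS is that of the isoform with this end. The NT, AS and RC4 libraries held 1493122, 1178477 and 1885486 PAS reads, and 82.5 to 83.0% of them fell in 3′UTR PASs of protein-coding genes. The level of a gene was the sum of its 3′UTR PAS reads, divided by a median-ratio size factor computed over the 6 libraries of the set, and is called its normalized reads below. The files leave out sites under 5 reads, so a gene given as 0 is one the library does not list, with at most 4 reads at each site. All 8 fibroblast markers had at least 20 reads in NT and RC4 together, and their summed level was 5314 normalized reads in NT, 5869 in AS and 5248 in RC4. Of the markers, Col1a1 and Pdgfrb were lower in RC4. Of 7 muscle, 5 macrophage, 4 epithelial and 3 endothelial markers, none had more than 16 reads in any of the 3 libraries. A lower count in bulk RNA cannot tell fewer expressing cells from less RNA per cell.

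The untreated libraries of the other sets differed strongly from NT of this set. Of 8348 genes tested between NT of set 1 and NT of this set, 3864 differed past 2-fold, as did 3864 of 8729 genes for set 2. RC4 was therefore compared with NT of its own set. With NT of set 1 as the control, 23.9% of 8447 genes were called higher and 27.7% lower, and with NT of set 2, 25% and 26% of 8826. Of 75 called genes chosen for naming, 54 kept their call with NT of set 1 and 62 with NT of set 2. Most ratios also changed in size: of 109 such genes, called or not, 74 moved by over 1.5-fold with NT of set 1 and 78 with NT of set 2. The fold changes below thus hold for NT of the same set. Where a call of these 75 genes was lost or turned with NT of set 1 or NT of set 2, its value is given beside it or among the processing alternatives. Genes named after their values were seen, such as Klf2, Gclm, Gclc and Fas, are not covered by this. Replication was approached with a model of edgeR (quasi-likelihood) over the 10 total RNA libraries of NIH3T3 cells with the set number as a block. That model takes the spread of RC4 from how far the difference between AS and NT varied between the sets, since RC4 was sequenced once. The fit without the block was planned as the main one, and the fit with it as an alternative.

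More genes differed from NT after 4 h of recovery than at the end of the stress. Of 7620 genes with at least 20 reads in NT and RC4 together, 870 (11.4%) were higher in RC4 and 676 (8.87%) were lower, each past 2-fold with a 95% counting interval that left out equality. At the end of the stress, 133 of 7323 genes were higher in AS than in NT (1.82%) and 301 were lower (4.11%). Directly between the stages, 1011 of 7395 genes were higher in RC4 than in AS (13.7%) and 605 were lower (8.18%). Under the blocked model, 602 genes passed an adjusted p of 0.05 as higher in RC4 (7.9%) and 422 as lower (5.54%). They included 528 of the 870 genes called higher and 356 of the 676 called lower. Without the block, edgeR called 0 genes in either direction, with 402 genes at an unadjusted p under 0.05, against 2079 with it. A total-read scaling moved every log2 ratio by −0.26 and turned the balance, with 567 genes higher and 1142 lower, so that 33.2% of the calls were higher in place of 56.3%. Hmox1, Mt1, Mt2, Hspa1b and Ptgs2 together took 0.276% of the 3′UTR reads in NT, 0.599% in AS and 3.50% in RC4.

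The genes of the heat shock response held some of the highest ratios between RC4 and NT. The inducible chaperone Hspa1b, an HSP70, had 67.6 normalized reads in NT, 357 in AS and 4142 in RC4. It was low in NT, intermediate in AS and far higher in RC4, 61.3-fold above NT (95% interval 48.5 to 78.6), with a blocked edgeR adjusted p of 0.000492. The size rested on the control and on the sites counted, since its log2 ratio of 5.94 became 4.11 with NT of set 1, 9.17 with NT of set 2 and 2.13 without the sites past the annotated end of the gene. Its near-identical copy Hspa1a, to which reads may be split, was not listed in NT or AS and had 42.5 normalized reads in RC4, at least 11.2-fold more. Hsph1, an HSP110 that exchanges nucleotide on HSP70, was not listed in NT, had 6.10 normalized reads in AS and 202 in RC4, and was at least 26.5-fold above NT. The cytosolic HSP90 gene Hsp90aa1 went from 15.2 and 31.7 normalized reads in NT and AS to 122 in RC4. This was 8.01-fold above NT (4.76 to 14.4).

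Of 22 HSP70, HSP110 and HSP90 genes tested, with co-chaperones such as Ahsa1, 10 rose and 0 fell in RC4, with a median log2 ratio of 0.91 beside 0.01 over all genes tested. The median of the same list was 0.04 in AS. Members that did not pass included Hspa5, the HSP70 of the endoplasmic reticulum, at 1316 normalized reads in NT, 1512 in AS and 1820 in RC4, a log2 ratio of 0.47 that was −0.04 with NT of set 2 as the control. Stip1, which links HSP70 to HSP90, had 938, 891 and 1698 normalized reads, 1.81-fold above NT.

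Of 16 DNAJ genes, which stimulate the ATPase of HSP70, 5 rose and 0 fell, with a median of 0.49. Dnajb1, the main partner of inducible HSP70, had 128 normalized reads in NT, 384 in AS and 1633 in RC4, 12.8-fold above NT (10.7 to 15.4). It was above NT in both treated libraries and highest in RC4. Dnaja1 was at 132 and 127 normalized reads in NT and AS and at 679 in RC4, so that RC4 alone stood apart by 5.13-fold (4.28 to 6.19). Dnaja4 and Dnajb4 had fewer than 100 normalized reads in each of NT, AS and RC4 and were 13.1-fold (5.35 to 41.6) and 11.3-fold (5.50 to 26.9) higher in RC4 than in NT. For Dnajb4 the log2 ratio of 3.50 fell to 0.82 with NT of set 1, which did not pass, and was 1.84 with NT of set 2.

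Of 16 small heat shock, BAG and chaperonin genes, 4 rose and 0 fell, with a median of 0.50. Cryab, a small heat shock protein, was at 232 and 245 normalized reads in NT and AS and at 1310 in RC4, 5.64-fold above NT (4.92 to 6.49). Bag3, a co-chaperone of selective autophagy, went from 238 and 283 to 1118, and Hspe1, the mitochondrial HSP10, from 1497 and 1685 to 5796. NT and AS were close to each other for all 3 genes, and RC4 was high. The cytosolic chaperonin subunits Tcp1 and Cct2 were 1.36-fold and 1.48-fold above NT and did not pass, and Tcp1 had a log2 ratio of −0.19 with NT of set 2 as the control.

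The promoters of some of these genes hold the core of the heat shock element, the sequence that HSF1 binds. The core was searched on both strands as GAANNTTC, which reads alike on both, from 250 bases before to 50 after each RefSeq start site (GRCm38.p6). It was in 9.04% of 27025 promoters, in 5 of 17 of the HSP70, HSP110 and HSP90 list, in 3 of 18 DNAJ genes and in 6 of 16 small heat shock, BAG and chaperonin genes. Of all genes called higher in RC4 it was in 6.82%, and of those called lower in 5.90%. A match is a description of the letters and not of a bound site. The windows of Hspa1b and Hspe1 are shown 5′ to 3′ on the strand of the gene, with the core in capitals. Both genes rose in RC4 and hold a match, while Dnajb1, which also rose, had none. The core starts 104 bases before the start site of Hspa1b and 84 bases before that of Hspe1.
Hspa1b: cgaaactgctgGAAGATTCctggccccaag
Hspe1: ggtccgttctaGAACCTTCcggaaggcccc

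**Figure D1:**
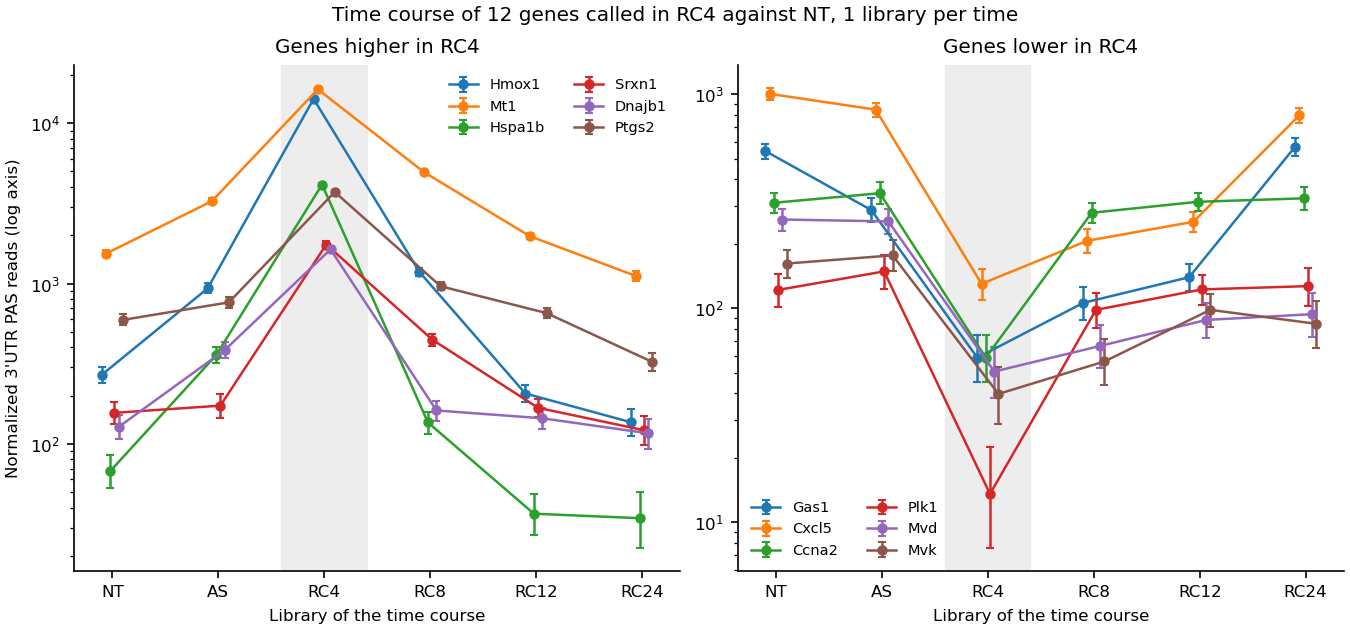
Normalized 3′UTR PAS reads (log axis) of 12 genes in the 6 libraries of the time course, 1 library per time, with bars for the 95% Poisson interval of the count and a grey band on RC4. The 6 genes on the left peaked in RC4, where Hmox1 reached 14181 normalized reads, and the 6 on the right were lowest in RC4, where Plk1 had 13.6.

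Genes of the antioxidant response were also among those that rose in RC4. Hmox1, heme oxygenase, had 269 normalized reads in NT, 933 in AS and 14181 in RC4, 52.6-fold above NT (46.8 to 59.4), with a blocked edgeR adjusted p of 9.48e-07. Srxn1, which repairs oxidized peroxiredoxins, was at 156 and 173 normalized reads in NT and AS and at 1751 in RC4, 11.2-fold above NT (9.56 to 13.2). Slc7a11, the cystine transporter that feeds glutathione synthesis, was not listed in NT or AS and had 241 normalized reads in RC4, at least 10.5-fold more. For Srxn1 and Slc7a11, RC4 stood apart from both earlier libraries, while Hmox1 was already 3.46-fold above NT in AS.

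Of 22 NRF2 targets tested, 11 rose and 0 fell in RC4, with a median log2 ratio of 1.00, against 0.21 for the list in AS. They included both subunits of the glutathione-making ligase, Gclm with 550, 478 and 1859 normalized reads in NT, AS and RC4, and Gclc with 68.6, 64.6 and 224. Prdx1, a peroxiredoxin, was at 4806, 5280 and 12387, 2.58-fold above NT (2.5 to 2.66). Txnrd1, thioredoxin reductase, rose from 53.3 to 354 normalized reads, but its log2 ratio was −1.33 with NT of set 1 as the control. Fth1, ferritin heavy chain, was 2.19-fold above NT (2.08 to 2.30), and −0.90 on the log2 scale with NT of set 2 as the control and −0.12 with the sum of the 3 NT libraries. The core of the antioxidant response element, TGACNNNGC on either strand, was in 14% of all promoters, in 7 of 20 NRF2 targets, and in 22.6% of genes called higher and 16.8% of those called lower. Other lists ranged from 1 of 18 actin and SRF target genes to 9 of 22 ATF4 targets. The windows of Txnrd1 and Gclm are shown because both list members were called higher and hold the core. It lies on the opposite strand here and is in capitals.
Txnrd1: actggatttttGCTTTGTCAttctgacacg
Gclm: cgctcccgggcGCACCGTCAactctcacga

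The metallothioneins, small cysteine-rich proteins that bind zinc and other metals, gave the highest median of all lists. Mt1 had 1536 normalized reads in NT, 3266 in AS and 16285 in RC4, and Mt2 had 674, 1577 and 9323. Both were above NT in AS and highest in RC4, by 10.6-fold (10.1 to 11.2) and 13.8-fold (12.8 to 14.9) over NT. Slc30a1, a zinc exporter, was at 45.7, 86.6 and 193 normalized reads, and Mtf1, the metal-responsive transcription factor, at 13.3, 15.8 and 27.1, which passed 2-fold narrowly (2.03-fold, 1.05 to 4.15) and not under the blocked edgeR model (adjusted p = 0.299). All 4 tested genes of the list were called higher, with a median of 2.74. The cores of the metal response element, TGCACNC and TGCGCNC on either strand, were in 14.2% and 17.0% of all promoters and each in 3 of 5 list members. Of genes called higher in RC4 they were in 13.4% and 32.3%, and of those called lower in 15.5% and 33.0%. In other lists TGCGCNC ranged from 3 of 20 NRF2 targets to 11 of 17 genes for proteins of stress granules or AU-rich elements. The windows of the metallothionein pair are shown with 1 such core each in capitals.
Mt1: gcggtcccgctgTGCACACtggcgctccag
Mt2: tcgcagacccttTGCGCTCagctcctttgc

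Some genes for the disposal of damaged proteins also rose, whereas no proteasome subunit passed against NT of this set. Zfand2a, an arsenite-inducible partner of the proteasome, had 42.8 normalized reads in NT, 79.2 in AS and 418 in RC4, 9.75-fold above NT (7.17 to 13.6). Sqstm1, the autophagy receptor p62, was at 206, 212 and 1603, 7.79-fold above NT (6.76 to 9.02). Of 11 genes of this list 6 rose and 0 fell, with a median of 1.04. Of 28 proteasome subunits 0 were called in either direction, at a median log2 ratio of 0.40, and Psmb4, a core subunit, was at 1307, 1385 and 2061. Its log2 ratio of 0.66 was 1.79 with NT of set 1 and 1.08 with NT of set 2. With NT of set 1 as the control 8 subunits were higher and 6 lower, and 10 and 4 with NT of set 2.

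Immediate early genes, which are transcribed within minutes of a stimulus, split by stage against NT of this set. Jun, a subunit of the factor AP-1, had 243 normalized reads in NT, 779 in AS and 413 in RC4, and Junb had 278, 730 and 478. Both were highest in AS, and neither passed in RC4, at 1.70-fold (1.46 to 1.99) and 1.72-fold (1.49 to 1.99) over NT. For Junb this depended on the control, with log2 ratios of 5.54 with NT of set 1 and 4.64 with NT of set 2 in place of 0.78. Atf3, a stress-induced repressor, was at 6.66, 86.6 and 138, and the small MAF gene Maff at 59.0, 92.6 and 418. Atf3 was 20.8-fold above NT (9.83 to 52.5), from 7 reads in NT. Of 23 genes tested, 10 rose and 1 fell in RC4, and 9 rose in AS, with medians of 0.77 and 0.65. The gene that fell was Klf2, a transcription factor, at 99.0 normalized reads in NT, 328 in AS and 38.0 in RC4. It was 3.31-fold above NT in AS and 2.61-fold below it in RC4. With NT of set 1 as the control 10 genes of the list were higher and 7 lower in RC4, and 15 and 4 with NT of set 2.

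Dual-specificity phosphatases, which switch off MAP kinases, were mostly higher in RC4. Dusp4 was at 29.5 and 35.4 normalized reads in NT and AS and at 309 in RC4, 10.5-fold above NT (7.24 to 15.7). Dusp1 was at 232, 621 and 256, high in AS only of the 3 libraries. This depended on the control, as its log2 ratio of 0.14 was 0.79 with NT of set 1 and 1.76 with NT of set 2. Of 7 tested genes 5 rose and 0 fell in RC4, with a median of 1.48, and 2 rose in AS, but with NT of set 1 as the control 2 were higher and 2 lower. The call of Dusp5, not listed in NT, and that of Dusp16 turned with other controls, to log2 ratios of −1.56 with NT of set 1 and −0.28 with NT of set 2, respectively.

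Targets of ATF4 rose in 11 of 21 cases, and genes of the unfolded protein response of the endoplasmic reticulum in 1 of 14. Ppp1r15a, which directs the phosphatase that restores eIF2α, had 22.9 normalized reads in NT, 165 in AS and 141 in RC4, 7.20-fold and 6.17-fold above NT. Trib3, a pseudokinase, was at 58.1, 68.3 and 251, and Slc7a5, an amino acid transporter, at 129, 193 and 514, 4.33-fold (3.27 to 5.81) and 4.00-fold (3.31 to 4.87) above NT in RC4. Trib3 did not pass with either other control, at log2 ratios of 0.69 with NT of set 1 and 0.97 with NT of set 2 in place of 2.11, and Slc7a5 did not pass with NT of set 1, at 0.68 in place of 2.00. Ppp1r15a was about as high in AS as in RC4, and the other genes were highest in RC4. Of the ATF4 targets 0 fell, and the median was 1.14 in RC4 and 0.30 in AS, where 4 rose. With NT of set 1 as the control 6 were higher and 2 lower, at a median of 0.23, and with NT of set 2 9 and 3. Atf4 itself was at 944, 1703 and 1344, which did not pass, and its log2 ratio of 0.51 was −0.58 with NT of set 1 and −1.45 with NT of set 2. Of 14 genes of the unfolded protein response only Ern1, its sensor kinase and nuclease, was called higher, at 20.0, 13.4 and 64.2 normalized reads, and the median was 0.07. Ern1 did not pass under the blocked edgeR model (adjusted p = 0.0605).

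Among targets of p53, more were called higher than lower. Cdkn1a, the cell cycle inhibitor p21, had 621 normalized reads in NT, 780 in AS and 2010 in RC4, 3.24-fold above NT (2.97 to 3.54), and Mdm2, which degrades p53, had 290, 297 and 1047. Plk2, a polo-like kinase, was at 243, 449 and 1302, and Gadd45a, a growth arrest protein, at 29.5, 54.9 and 141. RC4 was the highest of the 3 libraries for each of the 4 genes. Beside 11.4% of all tested genes called higher and 8.87% lower, 5 of 13 targets rose and 2 fell, at a median of 0.47. Those that fell were Sesn1, an inhibitor of the growth kinase mTORC1, at 38.1, 15.8 and 0 (not listed in RC4, at least 10.5-fold lower), and the death receptor gene Fas, at 20.0, 19.5 and 6.33.

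Genes for secreted signals were also called higher more often than lower. Ptgs2, cyclooxygenase 2 of prostaglandin synthesis, was at 593 normalized reads in NT, 763 in AS and 3722 in RC4, 6.28-fold above NT (5.77 to 6.84). Il11, a cytokine, was at 17.1, 36.6 and 169, and the EGF-family ligand Hbegf at 25.7, 46.3 and 167. Each of these was highest in RC4. The neutrophil chemokine Cxcl5 went the other way, from 1005 and 848 normalized reads in NT and AS to 130 in RC4, 7.72-fold below NT (6.48 to 9.26). With NT of set 1 as the control its log2 ratio was 1.33. Beside the 11.4% and 8.87% over all tested genes, 6 of 15 genes of the list rose and 2 fell, with a median of 0.81. The list does not hold Cxcl5. The 2 members that fell were the chemokine Cxcl1, at 96.2, 149 and 23.5, and the growth factor Fgf7, at 509, 594 and 230. Fgf7 was above each other control, at log2 ratios of 0.76 with NT of set 1, 0.41 with NT of set 2 and 0.15 with the sum.

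Other genes with high ratios in RC4 were not members of any list. Rnf183, a ubiquitin ligase, was at 4.76, 7.31 and 135 normalized reads in NT, AS and RC4, 28.3-fold above NT (11.9 to 88.4). Havcr2, an immune checkpoint receptor also known as TIM-3, was at 6.66, 0 and 157, Nppb, the precursor of B-type natriuretic peptide, at 4.76, 0 and 107, and Hgsnat, a lysosomal acetyltransferase, at 73.3, 70.7 and 813. All 4 were low in NT and AS and high in RC4.

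**Figure D2:**
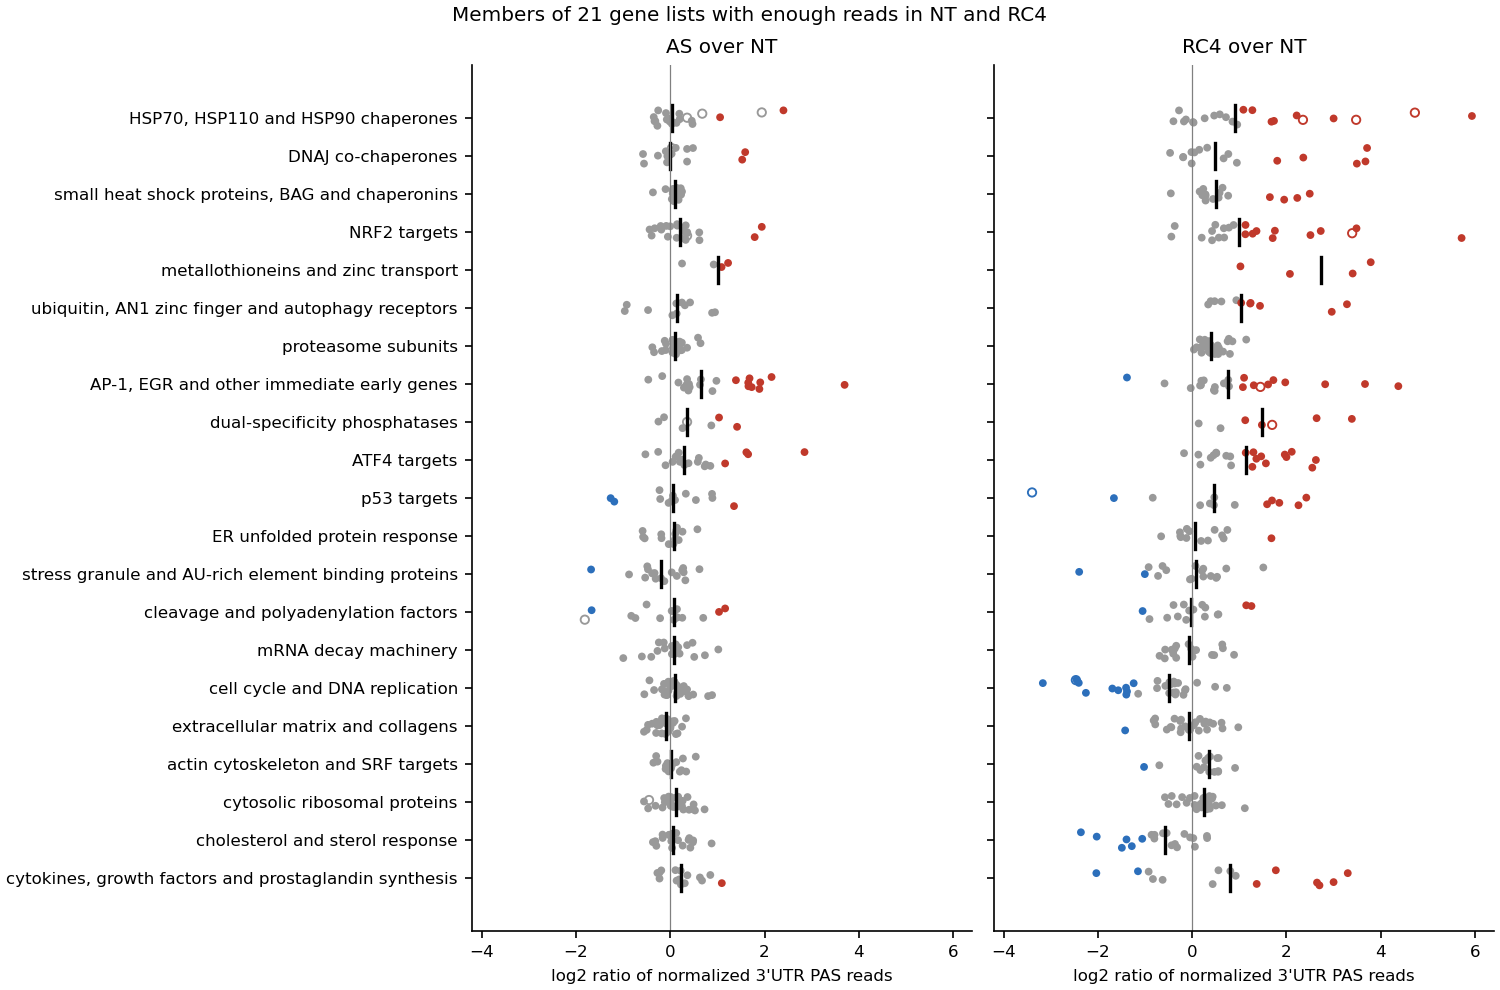
log2 ratio of normalized 3′UTR PAS reads, AS over NT (left) and RC4 over NT (right), for members of 21 gene lists with at least 20 reads in NT and RC4 together. Red and blue points were called higher and lower, grey ones were not called, open points are bounds for a gene not listed in a library, and black bars are medians, which for the metallothionein list moved from 1.00 in AS to 2.74 in RC4.

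Of 31 genes of the cell cycle and DNA replication, 11 fell in RC4 and 20 were not called, while none was called in AS. Plk1, a kinase of mitosis, had 122 normalized reads in NT, 149 in AS and 13.6 in RC4, 8.99-fold below NT (5.25 to 16.5), with a blocked edgeR adjusted p of 0.000379. Ccna2, cyclin A, had 311, 345 and 58.8, and Ccnb1, cyclin B, had 147, 149 and 30.7, which put them 5.30-fold (4.05 to 7.02) and 4.77-fold (3.27 to 7.13) below NT. NT and AS lay close together for all 3 genes, and RC4 was low. Cdk1, the kinase that cyclin B activates, was at 208, 272 and 64.2, and Aurkb, an Aurora kinase, at 40.0, 42.7 and 0, at least 5.53-fold below NT, although its log2 ratio was 1.03 with NT of set 2 as the control.

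The median log2 ratio of this list was −0.49 in RC4 and 0.09 in AS. With NT of set 1 as the control 4 of its genes were higher and 13 lower, and with NT of set 2 8 were higher and 11 lower, at a median of 0.24. The replication helicase subunits Mcm3 and Mcm6 were at 870 and 846 normalized reads in NT and at 708 and 613 in RC4, and did not pass. With NT of set 2 their log2 ratios were 0.50 and 1.84 in place of −0.30 and −0.47, and for Mcm6 it was 1.29 with NT of set 1. Cell cycle genes outside the list were among the lowest ratios of all: Fzr1, an activator of the anaphase-promoting complex, was at 280, 262 and 44.3, and Cdca5, which holds sister chromatids together, at 108, 160 and 18.1. Gas1, a membrane protein named for its expression in growth arrest, had 543, 288 and 58.8, 9.23-fold below NT (7.14 to 12.1), and its AS value, 1.89-fold below NT, did not pass.

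Of 20 genes of cholesterol synthesis and the sterol response, 6 fell in RC4 and 0 rose. Mvd and Mvk, enzymes of the mevalonate pathway, had 260 and 162 normalized reads in NT, 255 and 177 in AS, and 50.6 and 39.8 in RC4. They stood 5.13-fold (3.84 to 6.97) and 4.07-fold (2.91 to 5.8) below NT. The list had a median log2 ratio of −0.58 in RC4 and 0.05 in AS, and with the other controls 2 genes were higher and 11 lower (NT of set 1) or 2 and 8 (NT of set 2). Fasn, fatty acid synthase, was at 991, 886 and 353, and its log2 ratio was −0.04 with NT of set 1 and 0.49 with NT of set 2 as the control. The median of the list was −1.17 in RC8, and Mvd then had 66.7, 88.2 and 93.9 normalized reads in RC8, RC12 and RC24.

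Lists of structural and translational genes gave few calls. Of 27 matrix genes only Col1a1, a collagen chain, was called, at 254, 302 and 94.9 normalized reads, and the median was −0.07. Of 16 actin and SRF target genes only Filip1l was called, which fell (99.0, 80.5 and 48.8) and whose log2 ratio was 0.0036 with NT of set 2 as the control. Of 28 ribosomal protein genes 0 were called in either direction, with a median of 0.24. Actb, cytoplasmic actin, had 19870, 20436 and 25144 normalized reads, and the ribosomal protein gene Rpl8 had 8371, 8125 and 9871. Levels of such genes also depended on the control, as Rpl8 had a log2 ratio of 0.24 with NT of this set, −0.87 with NT of set 1 and −2.81 with NT of set 2, and Actb 0.34, 4.12 and 2.96.

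The calls in lists of proteins that act on mRNA ends and mRNA decay stand beside 11.4% of all tested genes called higher and 8.87% lower. Of 17 genes for proteins of stress granules or AU-rich elements, 0 rose and 2 fell, with a median of 0.07. With NT of set 1 as the control 4 were higher and 4 lower. With NT of set 2, 10 were higher and 4 lower, at a median of 1.14. Tial1, a relative of TIA1, was at 38.1, 47.5 and 7.23 normalized reads, and Zfp36l1, an mRNA decay factor, at 94.3, 96.3 and 47.0. For Zfp36l1 the direction turned with each other control, at log2 ratios of 1.64 with NT of set 1, 5.46 with NT of set 2 and 1.36 with the sum. Of 16 cleavage and polyadenylation factors 2 rose and 1 fell, with a median of −0.02. Papola, a poly(A) polymerase, was at 23.8, 13.4 and 57.0, and did not pass with NT of set 1 (log2 ratio 0.68). The other calls did not keep their direction. Pcf11 was at 11.4, 25.6 and 25.3, but had log2 ratios of −1.46, −1.44 and −1.19 with NT of set 1, NT of set 2 and the sum as the control. Cstf2t was at 16248, 9731 and 7843, but had 3.68, 6.00 and 1.54. Of 19 genes of mRNA decay 0 were called in either direction, at a median of −0.07.

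The set has no second RC4 library, but RC4 cells of other sets were sequenced by RNA-seq (reads on coding sequences per gene, with an NT library at 4 h) and as fractions of 4sU-labelled RNA. In these fractions, RNA labelled with 4-thiouridine in the last 1 h before harvest is newly made, and the flow-through (Ft) is enriched for pre-existing RNA. In RNA-seq, 1904 of 11163 genes were higher in RC4 (17.1%) and 1663 were lower (14.9%) by the same fold and counting rule. Scaled to total reads, these were 781 and 4566, with log2 ratios moved by −0.80. Hspa1a and Hspa1b together took 0.0120% of the RNA-seq reads of NT and 5.86% of those of RC4. Of the 870 genes called higher, 833 were tested in RNA-seq and 535 of them were called higher there (64.2%), 9 lower. Of the 676 called lower, 653 were tested and 311 were called lower (47.6%), 8 higher. Read from the other side, 846 of the 2099 genes called in RNA-seq and tested in both were called in the same direction in 3′READS.

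Over 7407 genes tested in both assays, the log2 ratios had a Pearson r of 0.65 and a Spearman rho of 0.60, and a Pearson r of 0.75 over the 2579 genes with at least 200 reads. These are across genes, which are not independent replicates. The RNA-seq control at 4 h was close to that at 0 h, with 117 of 11008 genes higher (1.06%) and 151 lower (1.37%). In the 4sU fraction, 1306 of 9631 genes were higher in RC4 (13.6%) and 1290 lower (13.4%), and the genes called higher in total RNA were called higher in 501 of 858 cases, those called lower called lower in 322 of 663. In Ft, 1311 of 8885 genes were higher (14.8%) and 1198 lower (13.5%), and the same counts were 563 of 854 and 333 of 651.

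Single genes differed in size between the assays. Hspa1b was 850-fold above NT in RNA-seq, Hmox1 133-fold and Dnajb1 120-fold, and Plk1 and Ccna2 were 2.73-fold and 2.35-fold below NT. The metallothioneins were less far above NT there, at 2.67-fold for Mt1 and 1.77-fold for Mt2, which did not pass, while in the 4sU fraction they were 4.87-fold and 5.20-fold higher. Ctgf, a matricellular growth factor gene, was at 17.1, 21.9 and 218 normalized reads in NT, AS and RC4 of total RNA (12.7-fold), but 1.13-fold above NT in RNA-seq and 1.39-fold in Ft, and its log2 ratio of 3.67 in total RNA was 0.79 with NT of set 1. Its relative Cyr61 was 3.93-fold above NT in total RNA (80.0, 149 and 315) and 1.15-fold below it in RNA-seq. The sterol list had 0 higher and 16 lower genes in the 4sU fraction, 0 and 3 in Ft, and 2 and 1 in RNA-seq. In the same order, the cell cycle list had 0 and 17, 1 and 14, and 2 and 9. The phosphatase list likewise had 6 and 0, 6 and 0, and 7 and 0. For proteasome subunits the counts were 9 and 0, 5 and 0, and 6 and 0. For proteins of stress granules or AU-rich elements they were 2 and 0, 2 and 2, and 5 and 0.

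**Figure D3:**
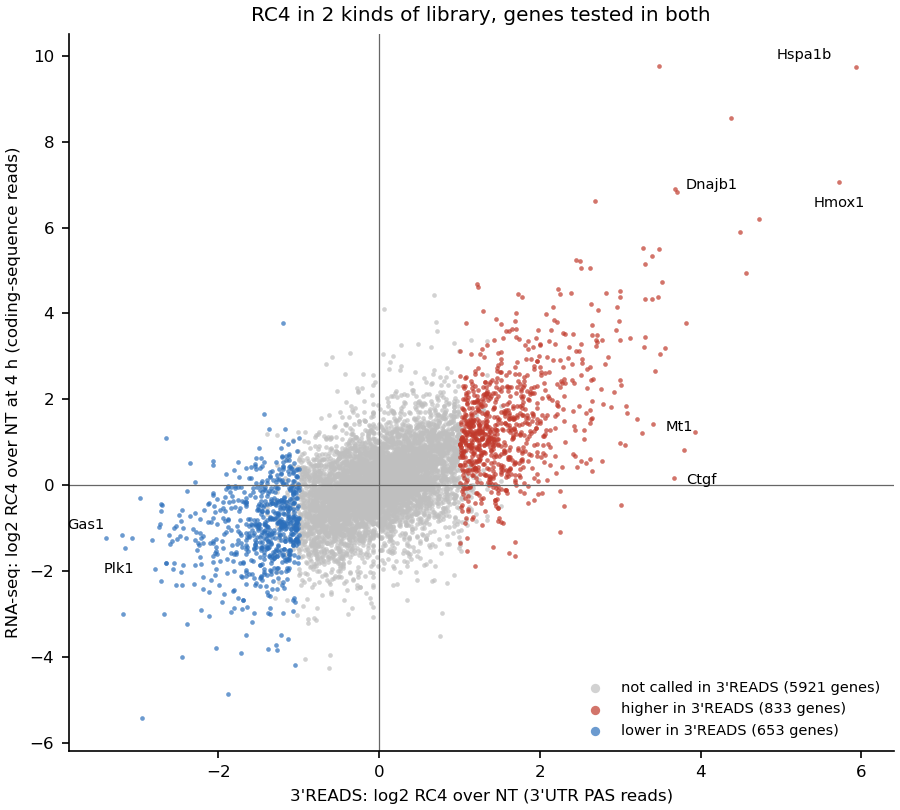
log2 ratio of RC4 over NT in 3′READS (x axis, 3′UTR PAS reads) and in RNA-seq (y axis, coding-sequence reads against NT at 4 h) for 7407 genes tested in both, 1 library per group in each assay. Genes called higher in 3′READS (red) lie mostly above 0 in RNA-seq, 763 of 833, and genes called lower (blue) mostly below it, 567 of 653.

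The medians of the called genes were farthest from NT in RC4. The genes called higher in RC4 had a median log2 ratio to NT of 0.21 in AS, 1.47 in RC4, 0.69 in RC8, 0.37 in RC12 and 0.17 in RC24. The genes called lower had −0.20, −1.39, −0.39, −0.23 and −0.17. The genes were chosen by their RC4 values, so the gap to the other libraries is not independent of that choice. Hspa1b had 136 normalized reads in RC8 and 36.7 in RC12, near its 67.6 in NT, while Hgsnat still had 542 and 243, above its 73.3. Plk1 was at 98.3 in RC8, near its level in NT, and Gas1 at 106 in RC8, 140 in RC12 and 569 in RC24, where it was again at the NT level.

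The 3′UTRs of 306 genes were shortened in RC4 and those of 53 were lengthened, of 2217 genes with more than 5 reads of both isoforms in each library (13.8% and 2.39%). Here the pPAS and dPAS of a gene are its most abundant pair of 3′UTR PASs over the 10 total RNA libraries, RED is the log2 ratio of dPAS to pPAS reads in RC4 minus that in NT, and a call needs a RED whose 95% interval leaves out 0 and a dPAS share moved by more than 5 points. In AS, 118 of 1990 genes were shortened (5.93%) and 37 lengthened (1.86%). The balance in RC4 depended on the control. With NT of set 1, 759 of 2253 genes were shortened and 508 lengthened, and with NT of set 2, 753 and 649 of 2441. Shortened genes thus outnumbered lengthened ones by a smaller ratio with either other control. The dPAS share of the shortened genes had a median of 64.8% in NT, 56.6% in AS, 43.6% in RC4, 55.1% in RC8, 56.0% in RC12 and 61.7% in RC24. Over all tested genes it was 57.9, 55.6, 51.6, 54.7, 55.2 and 58.9%. The shortened genes were chosen by their shares in RC4 and NT, so their medians are not independent of that choice.

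The shortened genes had long aUTRs, with a median of 1385 nt against 571 nt over all tested genes and 520 nt for the lengthened genes. In 120 of the 306 genes pPAS reads rose past 2-fold, in 69 dPAS reads fell past 2-fold, in 3 both, and in 120 neither passed. The median log2 ratio was 0.83 for pPAS and −0.41 for dPAS, beside 0.20 and −0.07 over all tested genes. The gap between these 2 medians follows in part from the choice of genes by the same reads. Which isoform moved more depended on the scaling. Scaled to total reads, pPAS reads rose past 2-fold in 84 genes and dPAS reads fell in 97, with medians of 0.57 and −0.67. The summed level of the gene was called higher in 36 of the shortened genes (11.8%, against 9.43% of all tested pairs) and lower in 14 (4.58%, against 3.83%).

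The pairs chosen in total RNA were then read in the other fractions, which have their own NT library at 4 h. In Ft, RED was below 0 for 266 of 285 shortened genes (93.3%) and for 75.7% of all 1939 tested pairs measured there. By the call rule, 180 of them were shortened in Ft (63.2%) and 0 lengthened, beside 33% and 3.92% of all pairs. In the 4sU fraction, RED was below 0 for 272 of 299 (91.0%, against 76.6%), and 183 were shortened and 2 lengthened, beside 32% and 2.5% of all 2076 pairs. For the lengthened genes, RED was below 0 in 26 of 48 in Ft and in 30 of 51 in 4sU, and 8 and 4 of them were called lengthened there, 9 and 10 shortened.

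**Figure D4:**
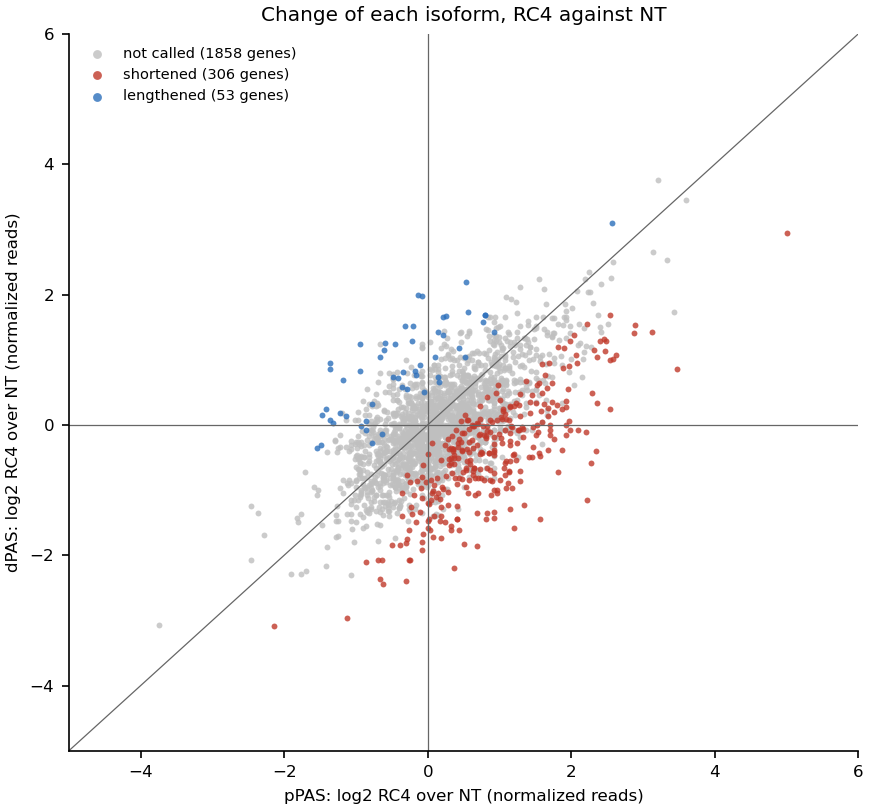
log2 ratio of RC4 over NT for the pPAS isoform (x axis) and the dPAS isoform (y axis) of 2217 genes, 1 library each, with the line of equal change. The 306 shortened genes (red) lie below the line, with medians of 0.83 for pPAS and −0.41 for dPAS, and the 53 lengthened genes (blue) above it.

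Aars, alanyl-tRNA synthetase, had the RED interval farthest from 0. Its pPAS had 258 reads in NT, 207 in AS and 801 in RC4, and its dPAS, 2036 nt downstream, had 295, 222 and 114. The dPAS share was 53.3% in NT, 51.7% in AS and 12.5% in RC4 (Wilson 95% interval 10.5 to 14.8), and then 38.1, 47.6 and 49.6% in RC8, RC12 and RC24. NT and AS did not differ beyond counting error, and RC4 was far lower, with a RED of −3.01 (−3.38 to −2.63). The share was 26.6 and 33.6% in the untreated libraries of the other sets, above RC4 as well. In Ft it went from 14.1% in NT to 2.79% in RC4 and in 4sU from 8.81 to 2.60%, so that RED was −2.51 and −1.86. The last 30 bases before each site are shown 5′ to 3′ on the + strand of mm9, at chr8:113579440-113579469 and chr8:113581476-113581505 in the 3′UTR, with the polyadenylation signal, canonical or variant, in capitals. The pPAS holds the canonical AATAAA and the dPAS the variant CATAAA.
Aars pPAS: tgcagaaAATAAAaaggaccatgtgcaata
Aars dPAS: aaaaCATAAAaactattttatgactggaaa

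Insig1, which holds the sterol sensor SCAP in the endoplasmic reticulum, had 12 pPAS reads in NT, 20 in AS and 61 in RC4, and 80, 110 and 56 dPAS reads. The dPAS share was 87.0, 84.6 and 47.9%, with a RED of −2.86 (−3.88 to −1.84). RC4 again stood apart from both earlier libraries. In Ft and 4sU the share was higher in both NT and RC4 (98.9 and 92.5%, 99.5 and 96.5%), and RED was −2.82 and −2.79, but in 4sU the share moved by too few points for a call. The sites lie 1388 nt apart on the + strand at chr5:28403785-28403814 and chr5:28405173-28405202 of mm9, the latter past the annotated end of the gene, and hold AATAAA and ATTAAA.
Insig1 pPAS: gaattaaAATAAAgggttgtgtaaagaggg
Insig1 dPAS: ttttttacttttATTAAAggttcaaaacca

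Dnajb1 combined a rise of the gene with a switch of isoforms. The pPAS isoform had 28 reads in NT, 52 in AS and 948 in RC4, and the dPAS isoform had 106, 263 and 858. Both rose, the pPAS by a log2 ratio of 5.01 and the dPAS by 2.94, so that the dPAS share went from 79.1 and 83.5% in NT and AS to 47.5% in RC4 (45.2 to 49.8), with a RED of −2.06 (−2.68 to −1.45). In the other untreated libraries the share was 78.0 and 79.9%. The pPAS (chr8:86134839-86134868, + strand, mm9) holds the variant AATATA, and the dPAS (chr8:86135773-86135802), past the annotated end, holds ATTAAA.
Dnajb1 pPAS: cacagAATATAttacaatctttcaaagtcg
Dnajb1 dPAS: gacagcATTAAAgactgatgctaaacctca

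Genes that the study examined singly for their 3′UTRs moved by unequal amounts. Nmt1, an N-myristoyltransferase, had 11, 16 and 54 pPAS reads and 101, 56 and 48 dPAS reads in NT, AS and RC4, so that its dPAS share was 90.2, 77.8 and 47.1%. The share was 39.7% in NT of set 1, where RED against RC4 was 0.43, and 73.4% in NT of set 2. In Ft the Nmt1 share went from 76.0 to 39.7% and in 4sU from 81.1 to 69.1%. Timp2, an inhibitor of metalloproteinases, went from 64.3 to 52.7% (RED −0.69, −1.02 to −0.36), and Hspa4l, an HSP110-related chaperone, from 53.8 to 39.0% (RED −0.86, −1.20 to −0.53). Rpl22, a ribosomal protein, went from 64.0 to 43.6%, and had a RED of 1.22 with NT of set 2 as the control. Purb, Tmem248 and Fam49b had no measured pair.

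Among the 10 most shortened genes, the share also fell in Slc6a6, the taurine transporter, from 81.2% in NT to 39.2% in RC4, with its pPAS not listed in AS. It was 80.5 and 77.4% in the untreated libraries of the other sets. Wipi2, a protein of autophagosome formation, went from 78.3 and 65.1% in NT and AS to 49.2%, with 86.1 and 71.9% in the other untreated libraries. For Slc6a6 and Wipi2, RC4 was below each of the 3 NT libraries. Rps3, a ribosomal protein, went from 71.8 to 33.3%, but its share was 2.28% in NT of set 1, where RED was 4.42. Rbms2 and Foxp1 had a dPAS share of 37.3 and 37.8% in NT and of 9.28 and 8.11% in RC4, from 9 and 6 dPAS reads in RC4.

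**Figure D5:**
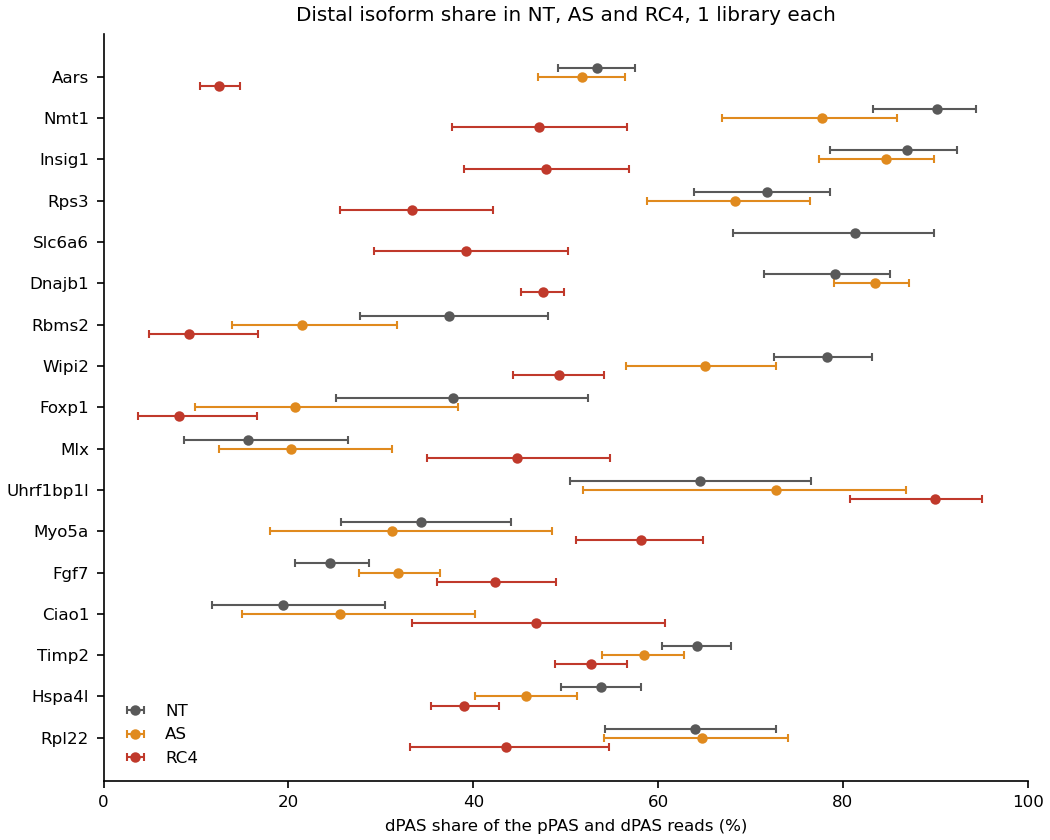
dPAS share of the pPAS and dPAS reads (%) of 17 genes in NT, AS and RC4, 1 library each, with Wilson 95% intervals. The point for AS of Slc6a6 is left out because its pPAS was not listed there, and the share of Aars drops from 53.3% in NT to 12.5% in RC4.

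The most lengthened genes were fewer and changed less. Mlx, a transcription factor of sugar metabolism, had 54, 55 and 52 pPAS reads and 10, 14 and 42 dPAS reads, so that the dPAS share went from 15.6 and 20.3% in NT and AS to 44.7% in RC4 (RED 2.12, 0.99 to 3.26). Myo5a, a myosin motor, went from 34.3 and 31.2% to 58.2% (RED 1.41, 0.69 to 2.14), and Uhrf1bp1l from 64.6 and 72.7% to 90.0% (RED 2.30, 0.89 to 3.72). Of these 3 genes only Myo5a was above 0 in 4sU, at a RED of 0.96, and in Ft it was at −0.36. In Fgf7 and Ciao1 the sites were 59 and 54 nt apart, close to the distance at which sites were joined, and Ciao1 had a RED of −1.88 and −2.01 with the other NT libraries as the control.

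Signal hexamers differed between the sites of a pair. Within the 30 bases before the site, AATAAA was found at 43.2% of the pPASs and 57.3% of the dPASs of the 2217 tested genes, and ATTAAA at 17.4 and 16%. In the shortened genes AATAAA was at 40.2% of pPASs and 66.0% of dPASs, and in the lengthened genes at 45.3 and 39.6%. The pairs printed above for Aars, Insig1 and Dnajb1 are thus unlike the majority of dPASs, since none of their 3 dPASs holds AATAAA.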

How the data were processed

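The 3′READS reads were, per the labels and the study's methods, trimmed with cutadapt, mapped with Bowtie2 to mm9 and kept when they began with non-templated T residues. The authors deposited raw read counts per PAS cluster, and raw read counts per gene on coding sequences for RNA-seq (STAR). Counts under 5 are not listed. No normalization had been applied.

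The 99725 PAS positions of the 38 3′READS libraries were joined within 24 nt into 83916 clusters. Of these, 44626 lay in the last exon of a protein-coding gene of GENCODE M1 on mm9 or up to 4000 nt past its end, and were assigned to 12923 genes; 242 ambiguous clusters and mitochondrial genes were left out, as was an RNA-seq symbol that a spreadsheet had turned into a date and that named more than 1 gene. Reads were divided by median-ratio size factors over the 6 time-course libraries. Ratios carry exact conditional 95% binomial (Clopper-Pearson) intervals and shares Wilson intervals, for counting error only, and a gene not listed in a library was set to 4 reads for each of its sites listed in the other library, which gives a bound. Genes with at least 20 reads in the compared pair were tested, and a call needed 2-fold. The RNA-seq libraries held 17136953 to 25193331 reads.

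edgeR 4.0.16 (R 4.3.3; quasi-likelihood test, Benjamini-Hochberg adjusted) was fitted over the 10 total RNA libraries of NIH3T3 cells, with and without the set number as a replicate block. The numbers pair the libraries: deviations from the group means correlated at 0.86, 0.86 and 0.82 between NT and AS of the same number and at −0.29 to −0.52 between different numbers. Deviations from a group mean cancel out within the group, so the negative values follow from the positive ones and add nothing to the pairing. Without the block, the p-values measure the spread between these libraries. With the block, they rest on how far the difference between AS and NT varied between the sets. Neither holds a spread of RC4 itself, which was sequenced once. The labels do not say that the sets are separate cultures, so either spread may be technical. Code was tested on simulated data. Python 3.11.15 with numpy 2.4.6, pandas 2.3.3, scipy 1.17.1 and matplotlib 3.10.9 was used, and promoter windows and motifs came from RefSeq (GRCm38.p6).

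Named genes were the 12 highest and 12 lowest ratios by the interval bound nearest to 0, up to 4 called and 2 further well-covered members of each list, the 10 most shortened and 5 most lengthened genes, and genes the study names for their isoforms. The genes, lists and the rule were chosen with earlier results of these data known. Klf2, Jun, Gclm, Gclc, Cdk1, Cxcl1, Pdgfrb and Fas were named after their values were seen. The alternatives changed the normalization, read minimum, site assignment, control library, fold rule and PAS pair. Total-read scaling of the 2 isoforms and the list counts with other NT libraries were added after seeing the data. Some genes that the rule would name are not reported here.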

Additional observations from a re-analysis of the deposited data

How the results depend on the processing

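Called genes, 870 higher and 676 lower in RC4 than in NT, became 567 and 1142 when scaled to total reads, 2021 and 2338 with NT of set 1 as the control, 2204 and 2295 with NT of set 2, 1827 and 2075 with the sum of the 3 NT libraries, 1431 and 1234 at 1.5-fold, and 339 and 133 when the whole interval had to pass 2-fold. A minimum of 50 reads gave 438 lower genes. edgeR gave 602 and 422 with the replicate block and 0 and 0 without it. Genes lower in RC4 than in AS became 1007 when scaled to total reads. The 306 shortened and 53 lengthened genes became 157 and 27 at more than 20 reads of each isoform, 759 and 508 with NT of set 1, and 753 and 649 with NT of set 2. Of the shortened genes, those whose pPAS rose, 120, became 84 when scaled to total reads, and those whose dPAS fell, 69, became 97, a scaling chosen after seeing the data. The RNA-seq counts became 781 and 4566 when scaled to total reads, and 1860 and 1645 with NT at 0 h as the control, which was chosen after seeing the data.

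Of 747 log2 ratios of 109 named genes under alternatives, 566 stayed on the same side of the call or, for genes not called, within the counting interval, 35 lost the call, 125 of genes not called left that interval and 21 reversed, these last with another NT library or the sum of all 3. The ratio moved by over 1.5-fold, whether or not the call was kept, in 74 of 109 genes with NT of set 1, in 78 with NT of set 2, in 71 with the sum, in 7 of 93 without sites past the annotated end, in 2 with all sense sites and in none with another scaling. Calls were lost with NT of set 1 for Atoh8 (−0.16), Dnajb4 (0.82), Mtf1 (0.26), Zfand5 (0.27), Ctgf (0.79), Dusp10 (0.36), Dusp16 (0.52), Slc7a5 (0.68), Trib3 (0.69), Asns (0.06), Papola (0.68), Aurkb (−1.01), Filip1l (−0.13) and Fasn (−0.04), and with NT of set 2 for Sin3a (−0.36), Hspb8 (0.21), Mtf1 (0.50) and Trib3 (0.97). Of the genes not called, 10 changed sign with each of these controls. The reversed ones were, with NT of set 1, Cxcl5 (1.33), Txnrd1 (−1.33), Dusp5 (−1.56), Zfp36l1 (1.64), Cstf2t (3.68), Pcf11 (−1.46) and Fgf7 (0.76). With NT of set 2 they were Fth1 (−0.90), Dusp16 (−0.28), Zfp36l1 (5.46), Cstf2t (6.00), Pcf11 (−1.44), Aurkb (1.03), Filip1l (0.0036), Fasn (0.49) and Fgf7 (0.41), and with the sum Fth1 (−0.12), Zfp36l1 (1.36), Cstf2t (1.54), Pcf11 (−1.19) and Fgf7 (0.15). Of 75 REDs of 17 genes, 5 reversed: Nmt1 (0.43), Rps3 (4.42) and Ciao1 (−1.88) with NT of set 1, and Ciao1 (−2.01) and Rpl22 (1.22) with NT of set 2. The cause was not tested. RC4 was sequenced once per assay, so no replicate of it could be left out, and depth limits what can be said of genes with under 20 reads, 5297 of 12917.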
